A study of Mus musculus with 12 samples.

Results

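DNA replication and S phase genes are the 49 genes whose products license replication origins, open and copy the DNA, supply deoxynucleotides and rebuild chromatin behind the fork. They were taken by symbol, and all 49 were found in each of the 4 deposited tables, among 16516 symbols in all. The libraries are 12 RNA-seq libraries of mouse bone marrow-derived macrophages, 3 in each of 4 groups. WT cells, labelled WTfl/fl (a floxed wild type), and cells labelled MGMT KO were each given either DMSO as vehicle or DMXAA, an agonist of mouse STING, over 24 h, the latter at a dose that the submitters' design text gives as 10 mg per ml. MGMT is a repair protein that takes alkyl groups off guanine. No Cre driver, promoter, age or number of mice is named in the labels. All 12 libraries carry 1 batch label.

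Replication starts in G1, when the origin recognition complex, CDC6 and CDT1 load the ring-shaped MCM2-7 helicase on DNA. In S phase CDC45, the GINS complex and MCM10 turn the loaded ring into a moving helicase, polymerases alpha, delta and epsilon copy the strands, and the sliding clamp PCNA, opened and closed by the RFC loader, holds the polymerases in place. Many of these genes are known targets of E2F factors and rise as cells enter S phase, and macrophages grown from bone marrow can divide in culture.

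The libraries held 79.5 to 98.1 M reads in listed genes. The KO libraries under DMXAA were the deepest at 94.1 to 98.1 M. Mgmt, the targeted gene, had 263, 245 and 243 reads in WT under DMSO against 121, 141 and 162 in KO, and 107, 85 and 99 against 51, 61 and 33 under DMXAA. It was lower in each library labelled KO than in every WT library of the same treatment but was not absent (log2 difference -0.83, adjusted p = 0.00566, under DMSO and -1.11, adjusted p = 0.00905, under DMXAA). All 8 macrophage markers had at least 10 reads in every library, and their summed level was 20594 to 21044 RPM (RPM being reads scaled to the library's total) in WT and 16736 to 17543 in KO under DMSO, and 11477 to 11719 against 9396 to 9485 under DMXAA. The lower sums in KO do not describe every marker. Under DMSO their median log2 difference was -0.05. In limma 3 of 8 were lower, Lyz2 (-0.66), Fcgr1 (-0.43) and Itgam (-0.28), and 0 higher. Under DMXAA the median was -0.08, with Lyz2 (-0.87) and Mertk (-0.33) lower and 0 higher. Markers of other cells were low, at 0.402 to 11.5 RPM under DMSO for neutrophil, myeloid progenitor and stromal lists and 19.3 to 26.6 RPM for the monocyte list, but these differed between groups and are given beside the results they move with.

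Per length of transcript, Pcna was the most abundant member in WT under DMSO, at 107.7 ± 6.91 RPM per kb of exon (SD, n = 3). Dnmt1, the maintenance DNA methyltransferase, followed at 62.6 ± 1.39 and Mcm6 at 31.4 ± 3.11. At the other end Pole, Orc1 and the origin-firing factor gene Ticrr had 0.44 ± 0.039, 0.325 ± 0.0389 and 0.127 ± 0.0204. The ranges of mean ± SD of Pcna, Dnmt1 and Mcm6 did not meet, nor did those of Pole, Orc1 and Ticrr. Pcna and Dnmt1 took 35.9 to 48.2% of all reads of the 49 genes in a library.

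The promoters of 41 of the 49 members are in RefSeq's table for build GRCm38.p6, as windows of 300 bases, 250 of them before the start. They are shown as a description of sequence and not as a test of the genotype difference. Many of these genes are known targets of E2F factors, so E2F letters are likely in this list whatever its values. The letters searched were TTTCCCGC, TTTCGCGC, TTTGCCGC and TTTGGCGC, core forms of the E2F site, on both strands. At least 1 was found in 17 of the 41 members (41.5%), against 475 of 10105 tested genes with a window (4.70%) and 2.26% of all windows. The pentamer CCAAT, the letters bound by NF-Y, was in 26 of the 41 (63.4%), against 43.5% of tested genes, and an interferon-response core, GAAA and GAAA with 2 bases between them, was in 1 (2.44%), Pold2, against 3.98%. The members with the E2F-type letters were Cdc6, Cdt1, Dnmt1, Gins3, Lig1, Mcm3, Mcm5, Mcm6, Mcm7, Orc1, Pclaf, Pola1, Pold1, Pold3, Pole2, Rfc3 and Uhrf1. The 200 bases before the start follow for 4 of them, Cdc6 (chr11:98907951-98908150, plus strand), Mcm5 (chr8:75109309-75109508, plus), Mcm6 (chr1:128359706-128359905, minus) and Uhrf1 (chr17:56304113-56304312, plus, the window with the match out of 2), and for Pcna (chr2:132253181-132253380, minus) and Timeless (chr10:128237866-128238065, plus), which have no match. Each is written 5′ to 3′ on the gene's strand and ends at the base before the start, and capitals mark the matched letters. The match is 138 bases before the start in Cdc6 and 185 in Uhrf1. These are RefSeq starts. The GENCODE genes Cdc6 and Uhrf1 begin earlier, at 98907801 and 56303321, so both printed windows lie inside the annotated genes. Mcm5 has 2 overlapping matches on opposite strands, at 153 and 149 bases, and Mcm6 has 3, at 110, 106 and 47 bases.
Cdc6: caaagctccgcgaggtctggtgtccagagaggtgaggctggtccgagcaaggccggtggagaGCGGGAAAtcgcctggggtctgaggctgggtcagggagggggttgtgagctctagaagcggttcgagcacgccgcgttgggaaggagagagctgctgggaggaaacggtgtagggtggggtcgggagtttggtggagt
Mcm5: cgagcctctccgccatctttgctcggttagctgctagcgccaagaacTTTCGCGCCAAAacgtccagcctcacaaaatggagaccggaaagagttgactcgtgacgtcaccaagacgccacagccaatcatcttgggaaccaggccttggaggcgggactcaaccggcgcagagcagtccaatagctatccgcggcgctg
Mcm6: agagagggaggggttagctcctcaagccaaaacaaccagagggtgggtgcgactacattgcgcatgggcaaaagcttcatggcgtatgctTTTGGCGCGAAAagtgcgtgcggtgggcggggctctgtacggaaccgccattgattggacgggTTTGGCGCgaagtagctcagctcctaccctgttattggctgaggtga
Uhrf1: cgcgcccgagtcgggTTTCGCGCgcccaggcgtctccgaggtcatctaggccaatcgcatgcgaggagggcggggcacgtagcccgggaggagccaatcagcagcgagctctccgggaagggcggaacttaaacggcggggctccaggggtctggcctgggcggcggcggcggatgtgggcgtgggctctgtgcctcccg
Pcna: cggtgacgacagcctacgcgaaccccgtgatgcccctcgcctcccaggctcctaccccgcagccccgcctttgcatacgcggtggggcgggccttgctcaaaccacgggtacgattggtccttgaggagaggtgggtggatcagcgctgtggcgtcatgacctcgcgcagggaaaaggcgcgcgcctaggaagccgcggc
Timeless: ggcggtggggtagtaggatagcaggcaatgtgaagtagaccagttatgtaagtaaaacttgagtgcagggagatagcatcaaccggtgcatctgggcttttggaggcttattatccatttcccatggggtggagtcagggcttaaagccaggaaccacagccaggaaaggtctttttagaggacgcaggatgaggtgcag
A match is only a description of the letters, and the absence of one in Pcna and Timeless says nothing about a factor.

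Under DMSO, KO macrophages held less RNA of replication genes in all 7 roles than WT macrophages did. The 49 genes together took 0.1347% ± 0.00386 of reads in KO (SD, n = 3) against 0.1931% ± 0.00872 in WT, and the highest KO library (0.1388%) lay below the lowest WT library (0.1835%). Without Pcna and Dnmt1 the other 47 took 0.0783% ± 0.00244 against 0.121% ± 0.00801. Of the 49 tested, 40 were lower and 0 higher at an adjusted p under 0.05 in limma, with a median log2 difference of -0.75. Over all 12814 genes tested, 9.58% were lower and 7.04% higher, with a median of 0.01. None was higher at an unadjusted p under 0.05 in limma, and edgeR's quasi-likelihood test and DESeq2 on the recovered reads also called 0 higher, with 40 and 41 lower. In bulk RNA, fewer cells in S phase and less of these transcripts per cell cannot be told apart.

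**Figure D1:**
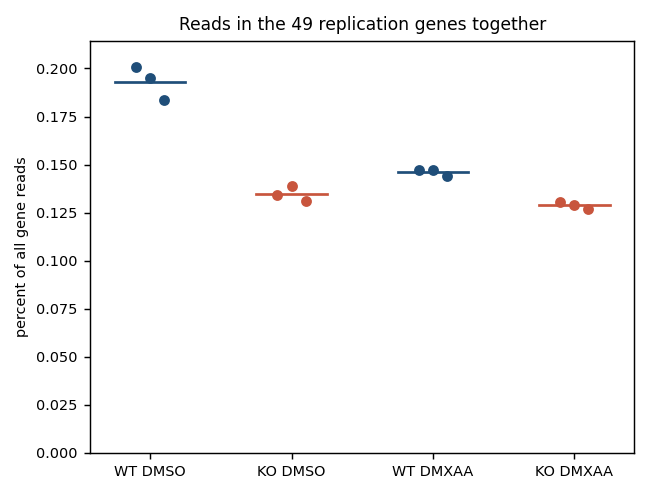
Percent of all gene reads that fall in the 49 replication genes together, by library (points, 3 per group) with the group mean (line). The WT libraries under DMSO sit at 0.1835 to 0.2005%, above the 9 other libraries, which sit at 0.1267 to 0.1474%.

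All 5 licensing genes were lower in KO under DMSO. Cdc6, which loads the helicase together with the origin recognition complex, had normalized counts of 1227, 1420 and 1136 in WT and 445.1, 497.7 and 237.9 in KO. The groups did not overlap, and the third KO library was the lowest by far (log2 -1.74, SE 0.22, adjusted p = 0.00031). Orc1, the largest subunit of the origin recognition complex, differed by -1.37 and its partner Orc6 by -0.53. Cdt1, the second loader, differed by -0.45 and Gmnn, which encodes the CDT1 inhibitor geminin, by -0.33. The call of Gmnn was lost without 5 of the 6 libraries in turn.

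All 6 genes of the MCM2-7 ring were lower. Mcm5 had 6893, 5899 and 5259 normalized counts in WT and 2038, 2231 and 1943 in KO. The KO libraries lay far below the lowest WT library (log2 -1.53, SE 0.09, adjusted p = 3.7e-06). The other subunits differed by less, Mcm7 by -1.13, Mcm2 by -1.07, Mcm6 by -0.77, Mcm4 by -0.75 and Mcm3 by -0.67.

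Among the 8 genes that activate the helicase or protect the fork, 6 were lower. Mcm10, which joins the helicase at firing, had 843.7, 815.5 and 735.5 in WT and 328.2, 233.6 and 206.1 in KO, with no overlap (log2 -1.66, SE 0.15, adjusted p = 4.1e-05). Cdc45, a helicase cofactor, differed by -1.20, Timeless, a fork protection factor, by -1.16, and Ticrr, which brings CDC45 to origins, by -1.08. Of the 4 GINS subunit genes, Gins1 (-1.02) and Gins2 (-0.95) passed the test, while Gins4 (-0.22) and Gins3 (-0.19) did not.

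Polymerase genes were the least uniform role, with 5 of 9 lower. Pole, the catalytic subunit of the leading-strand polymerase epsilon, had 458.7, 450.1 and 387.7 in WT and 151.9, 201.1 and 145.8 in KO. The groups lay far apart (log2 -1.38, SE 0.14, adjusted p = 9.3e-05). The primase subunits Prim1 and Prim2 differed by -0.89 and -0.50, the catalytic polymerase alpha subunit Pola1 by -0.68, and its delta counterpart Pold1 by -0.34. The accessory subunits did not pass the test: Pole2 differed by -0.31, Pola2 by -0.23, Pold2 by -0.09 and Pold3 by 0.02.

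Of the 12 genes of the clamp, clamp loader, single-strand binding complex RPA and lagging strand, 9 were lower. Pclaf, which encodes a PCNA-binding factor, showed the largest difference of all 49 (-2.04, SE 0.16, adjusted p = 1.6e-05). Pcna itself had 23858, 23336 and 21066 in WT and 12874, 13565 and 12438 in KO, again without overlap (-0.81, SE 0.06, adjusted p = 1e-05). DNA ligase I, Lig1, differed by -0.77, the flap endonuclease Fen1 by -0.40, Rpa2 by -0.62 and Rpa1 by -0.30. Of the loader, Rfc4 (-0.54), Rfc3 (-0.50) and Rfc5 (-0.41) were lower, while Rfc2 (-0.10), the large subunit Rfc1 (0.03) and Rpa3 (-0.13) did not pass the test. Rfc1 read 7897, 8032 and 8311 in WT and 8284, 8085 and 8374 in KO, so the groups overlapped. The call of Rfc4 rested on KO replicate 1 under DMSO: without it the adjusted p was 0.0547.

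All 5 nucleotide supply genes were lower. Rrm2, the S phase subunit of ribonucleotide reductase, had 1334, 1179 and 975.9 in WT and 344.8, 303.1 and 241.2 in KO. No KO library came near a WT library (log2 -1.97, SE 0.15, adjusted p = 1e-05). The salvage kinase Tk1 differed by -1.57, thymidylate synthase Tyms by -1.04, the dUTPase gene Dut by -0.93 and the large reductase subunit Rrm1 by -0.74.

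All 4 genes of chromatin assembly and methylation maintenance were lower too. Uhrf1, which brings DNMT1 to hemimethylated DNA, had 6095, 5342 and 4597 in WT and 1449, 1644 and 1213 in KO, far apart (log2 -1.90, SE 0.12, adjusted p = 4.2e-06). The CAF-1 histone chaperone genes Chaf1a and Chaf1b differed by -1.09 and -0.79. Dnmt1 differed by -0.18 and its call was lost without KO replicate 1, WT replicate 2 or WT replicate 3. Over all members, 36 of the 40 calls held whichever of the 6 libraries was left out, and the 4 others were Gmnn, Rfc3, Rfc4 and Dnmt1.

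**Figure D2:**
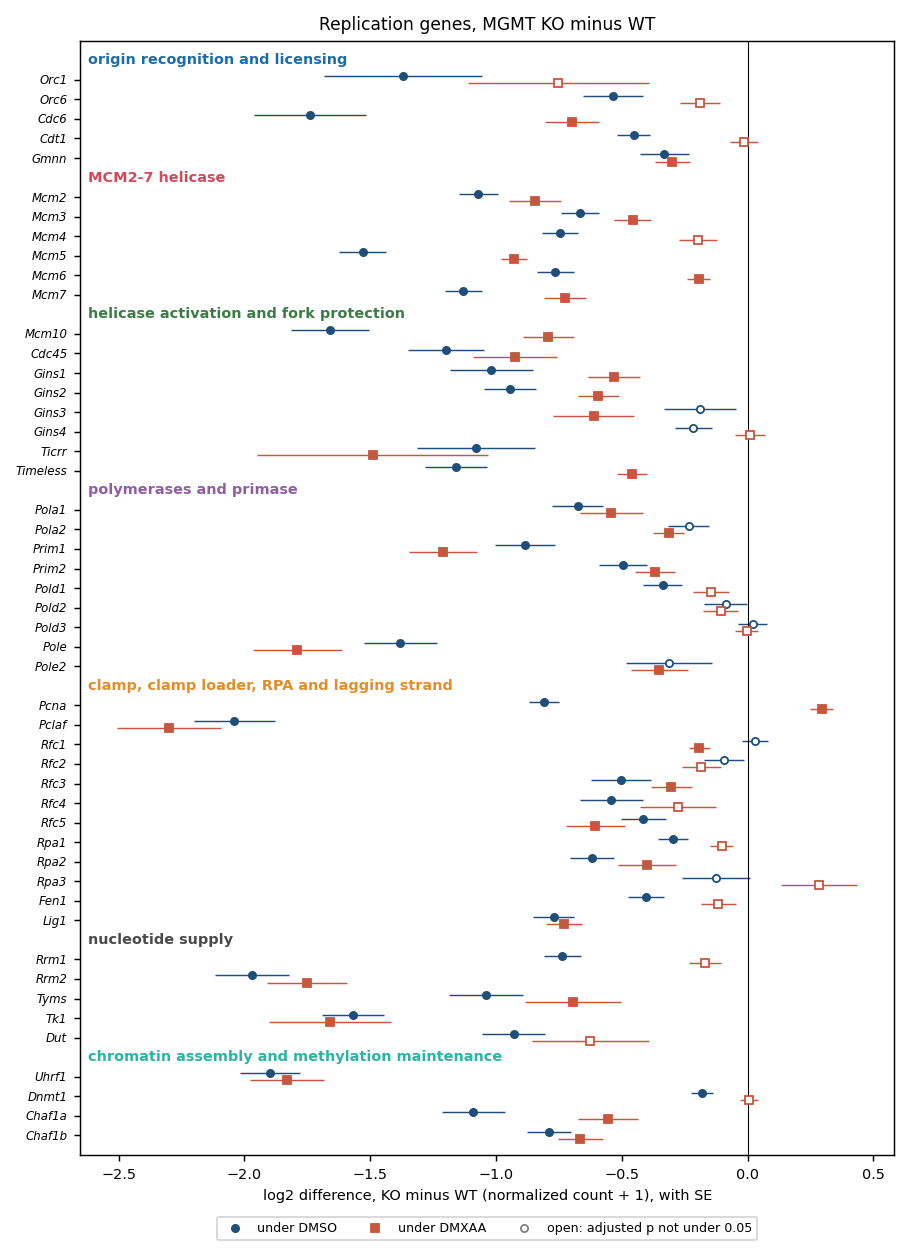
Log2 difference of KO minus WT for each of the 49 genes, with its SE, under DMSO (circles) and under DMXAA (squares), grouped by role. Filled symbols passed an adjusted p under 0.05. Under DMSO 40 filled circles lie left of 0 and none right, and under DMXAA Pcna is the filled square to the right.

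The genotype difference came with differences in markers of other cells. The summed neutrophil markers stood at 0.755 to 1.25 RPM in KO and 5.5 to 7.84 in WT under DMSO. Camp and Retnlg had no reads in KO, and Ly6g had none in either genotype. The progenitor list stood at 10.6 to 11.5 in KO against 5.03 to 5.66 in WT, through Cd34 (log2 1.12), with Elane and Ctsg at 0 reads in both. Stromal markers ranged from 0.992 to 5.88 in KO and from 0.402 to 0.884 in WT. Of 4 stromal genes tested, the collagen genes Col1a1 (4.71), Col1a2 (4.07) and Col3a1 (2.91) were higher in KO and 0 lower. KO replicates 2 and 3 held 199 and 200 reads of Col1a1 and replicate 1 held 10. With those 2 libraries left out, 32 members were lower and 0 higher in KO under DMSO, with a median of -0.76; that alternative was chosen after seeing the data, and its lone KO library is assumed to vary as the WT libraries do. The monocyte list summed to 24.4 to 26.6 RPM in KO and 19.3 to 25.5 in WT, with Chil3 (-1.75) and Ly6c2 (-0.95) lower in KO and F13a1 (0.81) higher. The part of the neutrophil, progenitor and monocyte differences in the result was not tested.

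Genes around the list were examined in the same comparison, where 9.58% of all tested genes were lower in KO and 7.04% higher. A count near these shares says nothing particular to a list. Of 31 other replication factors, 12 were lower in KO and 0 higher, with a median of -0.19. Clspn, the checkpoint mediator claspin, differed by -1.47 and Wdhd1, which links helicase and polymerase alpha, by -1.05. Each of the 14 G2 and M phase markers was lower (median -1.13), including the topoisomerase gene Top2a (-1.31), Plk1 (-1.46) and Bub1 (-1.48). Of 12 G1 and S cyclins and kinases 7 were lower, led by Ccne1 (-1.47), Ccnd1 (-1.01) and Ccna2 (-1.20), and 0 were higher. The E2F and RB family had 7 lower, with Mybl2 at -2.23, Foxm1 at -1.16 and E2f8 at -1.03, and 1 higher of 19, the pocket protein gene Rbl2 (0.18). Of 20 other nucleotide metabolism genes 9 were lower and 0 higher. Of 10 S phase checkpoint genes 3 were lower and 0 higher, with the checkpoint kinase gene Chek1 at -1.58. Among 7 CDK inhibitor genes, Cdkn1b (0.28) was higher and 0 lower. The counts of 0 higher in these lists are limma's at the adjusted threshold. At an unadjusted p under 0.05 they were 1 each for the other replication factors and the nucleotide metabolism genes and 0 for the rest, and the CDK inhibitors had 2 lower. Both edgeR and DESeq2 also called 0 in each.

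DMXAA changed the list in both directions in WT macrophages. Of 49 members, 30 were lower and 10 higher after 24 h, with a median log2 change of -0.37. DMXAA moved much of the transcriptome, and 31.1% of 12752 tested genes were lower and 31.7% higher, with a median of -0.00, so 10 of 49 higher is under the background share. The directions depend on scaling. With libraries set to the same total, which moves the median of all genes by -0.32, 39 members were lower and 4 higher (9.3% of calls higher in place of 25%). With the same upper quartile, which moves that median by -0.13, 34 were lower and 6 higher (15% of calls). The members called higher under all 3 scalings were Timeless, Rfc1, Pold3 and Rfc5.

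Markers of other cells moved with DMXAA as well. The 6 monocyte markers summed to 410 to 432 RPM in WT under DMXAA, where Ly6c2 rose by 4.89 and Ccr2 by 1.52 and F13a1 stood at -7.1, called lower. In KO they summed to 257 to 334 RPM, and Ccr2 rose by 1.54, with F13a1 at -9.47, called lower. The progenitor genes Kit (-2.53 in WT, -3.76 in KO) and Cd34 (-1.77, -1.45) were lower under DMXAA, and Elane had no reads in either genotype. The part of these markers in the responses of the replication genes was not tested.

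Nucleotide supply fell most, with all 5 genes lower and a median of -2.03. Rrm2 had 1191, 1051 and 872.2 normalized counts under DMSO and 257.4, 220.3 and 228.8 under DMXAA. The treated libraries lay far below the vehicle libraries (log2 -2.13, SE 0.12, adjusted p = 2.3e-07). Dut (-2.05), Tk1 (-2.03), Rrm1 (-0.97) and Tyms (-0.94) fell too.

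All 6 MCM2-7 genes fell as well. Mcm7 had 5973, 5523 and 5353 under DMSO and 2569, 2353 and 2623 under DMXAA (log2 -1.16, SE 0.06, adjusted p = 1.6e-07). The groups lay far apart, as they did for Mcm2 (-1.15), Mcm3 (-0.88), Mcm5 (-0.68) and Mcm4 (-0.57). Mcm6 changed least, by -0.26.

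Licensing genes were split. Cdc6 had 1095, 1265 and 1016 under DMSO and 495.8, 517.3 and 417.2 under DMXAA, with no overlap (log2 -1.24, SE 0.11, adjusted p = 5.7e-06). Orc1 (-0.97), Gmnn (-0.42) and Orc6 (-0.36) fell too. Cdt1 rose, from 1807, 1685 and 1706 to 2101, 2186 and 2300 (0.34, SE 0.06, adjusted p = 0.00095). Its groups did not overlap, but with the same total its change was 0.02 and did not pass.

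Timeless rose more than any other member. It read 1993, 1954 and 1635 under DMSO and 7388, 7692 and 6622 under DMXAA (log2 1.96, SE 0.09, adjusted p = 2.7e-08). Every treated library held more than every vehicle library held, by a wide margin. Mcm10 went from 753.2, 726.9 and 657.3 to 946.6, 995.2 and 806.7 (0.36, SE 0.10, adjusted p = 0.0094), and Gins1 from 389.2, 486.9 and 410.8 to 588, 488.6 and 577.8 (0.36, SE 0.12, adjusted p = 0.020). These gaps were narrow, the lowest treated Gins1 library lying just above the highest vehicle library, and with the same total the changes were 0.04 and 0.05 and did not pass. Ticrr (-1.15) and Cdc45 (-1.09) fell, while Gins2 (-0.18), Gins3 (-0.08) and Gins4 (0.16) did not pass the test.

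Most clamp loader genes rose as deposited, while most of the polymerase and lagging-strand genes fell. Of the loader, only Rfc1 and Rfc5 were called higher under every scaling. Rfc1, the large loader subunit, had 7050, 7160 and 7428 under DMSO and 14616, 14566 and 14102 under DMXAA (log2 1.0, SE 0.04, adjusted p = 3.1e-08). Its treated libraries were all close to a doubling. Rfc5 rose from 664.7, 636.1 and 590 to 846.5, 1130 and 969.6 (0.63, SE 0.11, adjusted p = 0.00061) and Rfc2 from 2556, 2135 and 2139 to 2799, 3321 and 3454 (0.49, SE 0.10, adjusted p = 0.0015). Neither overlapped, although the first Rfc2 library under DMXAA lay close to the highest vehicle library. Rfc3 rose from 749, 675.2 and 763.3 to 810.6, 931.3 and 924.5 (0.28, SE 0.09, adjusted p = 0.017), but with the same total it stood at -0.03. Rfc4 (-0.25) did not pass the test. Pold3, a polymerase delta subunit, rose from 3295, 3092 and 3130 to 5005, 5230 and 5131 (0.69, SE 0.05, adjusted p = 1.5e-06). Its groups were tight and far apart.

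The other polymerase genes that passed fell, namely Pole2 (-0.79), Pole (-0.78), Prim1 (-0.47), Pold1 (-0.38), Pold2 (-0.37) and Pola1 (-0.31). Pola2 (-0.01) and Prim2 (0.03) did not pass. Pclaf (-1.47), Lig1 (-0.85), Rpa2 (-0.66), Rpa1 (-0.37) and Fen1 (-0.27) fell. Leaving out 1 library at a time, the fall of Fen1 lost its call without WT replicate 2 under DMSO (adjusted p = 0.0511). Those of Orc6 and Pola1 lost it in 3 of 6 such fits each, with adjusted p up to 0.0785 and 0.0994. Among the risers, Gins1 lost its call in 4 of 6, with adjusted p up to 0.0704, and Rfc3 in 3, with adjusted p up to 0.0686. Pcna (-0.11) and Rpa3 (-0.31) did not pass the test as deposited, but both passed as lower with either other scaling, with the same total Pcna at -0.42 (adjusted p = 0.000112) and Rpa3 at -0.62 (adjusted p = 0.0019). Gins2 and Chaf1b also passed as lower with either, at -0.49 and -0.49 with the same total. Gins3 (-0.39), Pola2 (-0.33), Prim2 (-0.29) and Rfc4 (-0.56) passed as lower with the same total and not with the same upper quartile.

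Uhrf1 had 5441, 4762 and 4108 under DMSO and 1830, 1929 and 1884 under DMXAA, far apart (log2 -1.33, SE 0.09, adjusted p = 8e-07). Chaf1a (-0.75) fell and Chaf1b (-0.17) did not pass. Dnmt1 went from 35619, 36366 and 36903 to 38408, 38888 and 39953, a small change without overlap (0.11, SE 0.04, adjusted p = 0.038). That direction turned to -0.21 with the same total and to -0.02 with the same upper quartile, and its call was lost whichever library was left out.

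In KO macrophages DMXAA lowered 22 members and raised 13, with a median of -0.17. Of 12704 genes tested, 32.9% were lower and 33.7% higher, with a median of -0.00. With the same total, which moves the median of all genes by -0.39, 34 members were lower and 7 higher. All 10 members that rose in WT, as deposited, were among the 13 that rose in KO, and 21 genes fell in both, which is 21 of 30 in WT and 21 of 22 in KO. These responses share no library, but the share of all genes called alike in both is not given here. The overlap is therefore no result about the members. The members that rose in KO and not in WT were Pcna, Mcm6 and Gins4, of which Mcm6 and Gins4 did not rise with the same total. The 8 genes that fell in WT without passing the test in KO were Orc1, Orc6, Cdc6, Mcm4, Mcm5, Pola1, Fen1 and Chaf1a, a count that is no test of a difference. With the same total 7 of these 8, the exception being Orc1, were called lower in KO.

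Pcna had 11832, 12422 and 11451 normalized counts in KO under DMSO and 23230, 24848 and 23366 under DMXAA. All treated libraries were close to a doubling (log2 1.0, SE 0.05, adjusted p = 2.2e-08). In WT the same gene had 21299, 20801 and 18827 under DMSO and 19282, 19432 and 17817 under DMXAA, and the groups overlapped. The difference of the responses was 1.11 (SE 0.08, adjusted p = 1.7e-06), the smallest p of the 49, and lay at 1.07 to 1.16 over the 12 leave-one-out fits. GENCODE names 2 processed copies, Pcna-ps1 and Pcna-ps2, neither of which is listed in the tables, so reads shared with them cannot be told apart from reads of Pcna.

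Mcm6 rose in KO from 6923, 7251 and 6662 to 8712, 8674 and 8514 (0.32, SE 0.05, adjusted p = 0.00016), with no overlap, but with the same total its change was -0.07 and did not pass. Gins4 rose from 1169, 1202 and 1172 to 1516, 1527 and 1596 (0.39, SE 0.06, adjusted p = 0.00025), also with no overlap and also at -0.00 with the same total. Timeless rose from 1011, 867.4 and 714.6 to 5162, 5564 and 5522, the largest change of the list (2.66, SE 0.11, adjusted p = 7.2e-09). Mcm10 rose from 301.7, 213.9 and 189.8 to 492.2, 589.1 and 550.8 (1.23, SE 0.16, adjusted p = 7.1e-05). Both genes separated cleanly, and both passed under all 3 scalings.

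The remaining risers in KO were Gins1 (0.86), Cdt1 (0.78), Rfc1 (0.78), Pold3 (0.67), Rfc3 (0.48), Rfc5 (0.44), Rfc2 (0.40) and Dnmt1 (0.30). With the same total Dnmt1 turned to -0.09, and Rfc2, Rfc3 and Rfc5 no longer passed. The largest falls in KO were again in nucleotide supply and clamp binding, with Tk1 at -2.12, Rrm2 at -1.91, Dut at -1.74 and Pclaf at -1.73, beside Ticrr at -1.58. Rrm2 went from 316.9, 277.5 and 222.1 to 82, 64.2 and 67.7. Uhrf1 (-1.27), Pole (-1.19), Mcm2 (-0.92), Pole2 (-0.83), Lig1 (-0.81), Cdc45 (-0.81), Prim1 (-0.80), Mcm7 (-0.76), Mcm3 (-0.67), Tyms (-0.59) and Gins3 (-0.50) fell less. So did Rpa2 (-0.44), Rrm1 (-0.40), Gmnn (-0.39), Pold2 (-0.39), Pold1 (-0.19) and Rpa1 (-0.17). The call of Pold1 was lost in 5 of 6 leave-one-out fits, with adjusted p up to 0.164, and neither Pold1 nor Gins3 was called there in the authors' deposited table. That of Tyms, whose groups overlapped, was lost in 4 of 6, with adjusted p up to 0.108.

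**Figure D3:**
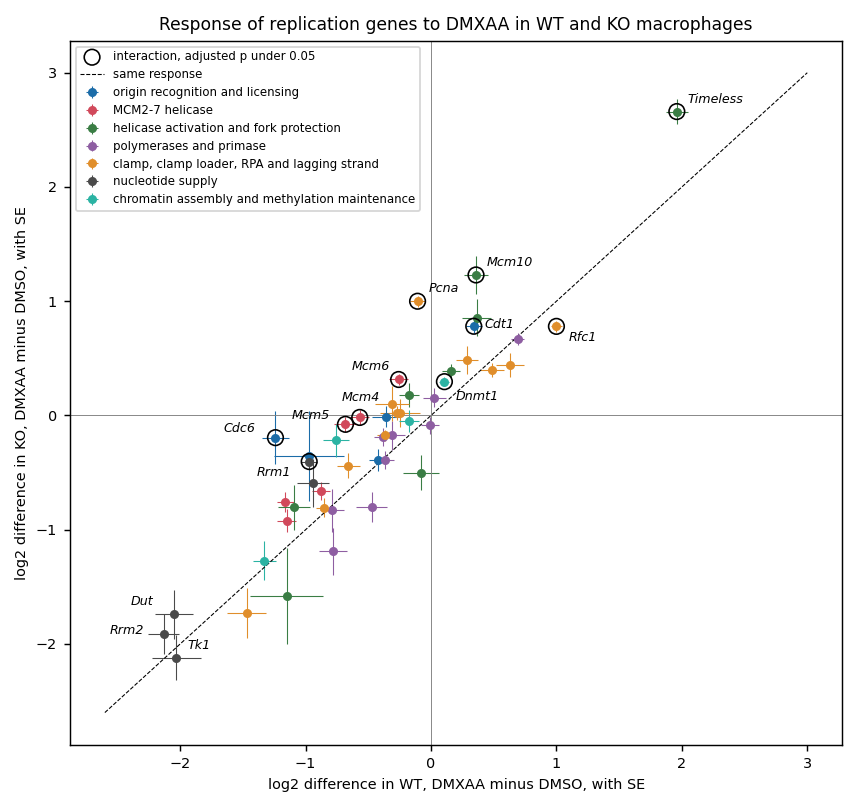
Log2 change with DMXAA in WT (horizontal axis) and in KO (vertical axis) for each of the 49 genes, with SE, coloured by role, as deposited. Rings mark the 11 genes whose responses differed, and 10 of these lie above the dashed line of equal response, Pcna (-0.11 in WT, 1.0 in KO) farthest above. With libraries set to the same total, Dnmt1, Rfc3, Gins4 and Prim2 change sign in WT, and Dnmt1, Mcm6, Gins4, Prim2, Rfc4, Fen1, Gins2 and Rpa3 in KO.

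The responses of KO and WT to DMXAA were compared in 1 fit over all 12 libraries. Here and below a higher response is a more positive log2 change, and a lower response a more negative one. A higher response can thus be a smaller fall, as for Cdc6, at -1.24 in WT and -0.19 in KO. Of 49 members, 10 had a higher response in KO and 1 a lower one, with a median difference of 0.22, against 5.37% and 3.24% of 12729 tested genes and a median of 0.00. The members were Pcna (1.11), Cdc6 (1.04), Mcm10 (0.87), Timeless (0.70), Mcm5 (0.60), Mcm6 (0.57), Rrm1 (0.57), Mcm4 (0.55), Cdt1 (0.44) and Dnmt1 (0.19), and Rfc1 (-0.22) with the lower response. By role, 3 of 6 MCM2-7 genes, 2 of 5 licensing genes, 2 of 8 helicase activators and 0 of 9 polymerase genes had a higher response in KO. For the polymerase genes the count was 0 also at an unadjusted p under 0.05 in limma and by edgeR and DESeq2, which called 11 members higher in all.

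Mcm4 is an example from the ring. In WT it had 1747, 1730 and 1611 under DMSO and 1046, 1225 and 1165 under DMXAA, a clear fall. In KO it had 1047, 1063 and 1008 under DMSO and 1023, 987.7 and 1072 under DMXAA, and the groups overlapped (difference of responses 0.55, SE 0.10, adjusted p = 0.0030). Rrm1 fell in WT from 2776, 2884 and 2605 to 1379, 1368 and 1465, and in KO from 1613, 1838 and 1655 to 1285, 1236 and 1336. Both falls were without overlap, and the WT fall was the larger (0.57, SE 0.09, adjusted p = 0.0017). Cdt1 in KO went from 1282, 1317 and 1307 to 2213, 2300 and 2202, which reached the level of treated WT libraries in the table that holds both. The difference of its responses was 0.44 (SE 0.08, adjusted p = 0.0027).

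Of the 10 higher responses, 8 kept their call in every one of the 12 leave-one-out fits. Cdc6 lost it in 8 of them, with adjusted p up to 0.0911, and Dnmt1 in 7, with adjusted p up to 0.0752. Rfc1 lost its lower response in 8, with adjusted p up to 0.0836. With KO replicates 2 and 3 under DMSO left out, 7 members were called higher and 0 lower, and Timeless (0.46, adjusted p = 0.0933), Mcm10 (0.49, adjusted p = 0.164) and Dnmt1 (0.20, adjusted p = 0.113) did not pass.

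Under DMXAA most members were still lower in KO than in WT. Of 49 members, 32 were lower and 1 higher, with a median of -0.46, where 10.8% of 12499 tested genes were lower and 10.7% higher, with a median of -0.00. The 49 genes took 0.1288% ± 0.00193 of reads in KO and 0.146% ± 0.00195 in WT (SD, n = 3), with no overlap. Pcna was the member that was higher, with 20822, 22210 and 20892 in KO and 17829, 17861 and 16421 in WT (log2 0.29, SE 0.05, adjusted p = 0.0011). Its lowest KO library lay above the highest WT library, the opposite of its order under DMSO. The lower members were led by Pclaf (-2.30), Uhrf1 (-1.83), Pole (-1.79), Rrm2 (-1.75), Tk1 (-1.66), Ticrr (-1.49) and Prim1 (-1.21). Uhrf1 had 428, 654.1 and 409.1 in KO against 1692, 1773 and 1736 in WT, far apart.

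Of the MCM2-7 ring Mcm5 (-0.93), Mcm2 (-0.84), Mcm7 (-0.73), Mcm3 (-0.46) and Mcm6 (-0.19) were lower and Mcm4 (-0.20) did not pass. The call of Mcm6 was lost without WT replicate 2 under DMXAA (adjusted p = 0.0538). Cdc45 (-0.93), Mcm10 (-0.79), Gins3 (-0.61), Gins2 (-0.59), Gins1 (-0.53) and Timeless (-0.46) were lower, and Gins4 (0.01) did not pass. In the licensing group Cdc6 (-0.70) and Gmnn (-0.30) were lower, while Orc1 (-0.75), Orc6 (-0.19) and Cdt1 (-0.01) did not pass. The clamp loader genes Rfc5 (-0.60), Rfc3 (-0.30) and Rfc1 (-0.19) were lower, and Rfc2 (-0.18) and Rfc4 (-0.28) did not pass.

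Lig1 (-0.73), Chaf1b (-0.67), Tyms (-0.70), Chaf1a (-0.56), Pola1 (-0.54), Rpa2 (-0.40), Prim2 (-0.37), Pole2 (-0.35) and Pola2 (-0.31) were also lower in KO under DMXAA. The members that did not pass were Dut (-0.62), Rpa3 (0.28), Rrm1 (-0.17), Pold1 (-0.15), Fen1 (-0.12), Pold2 (-0.11), Rpa1 (-0.10), Dnmt1 (0.00) and Pold3 (-0.00). Between the treatments 28 members were lower in KO under both, 11 were lower under DMSO without passing the test under DMXAA, and 4 under DMXAA without passing under DMSO (Gins3, Pola2, Pole2 and Rfc1). Pcna was lower under DMSO and higher under DMXAA. Leaving out each library in turn kept 25 of the 32 lower calls, the others being Mcm6, Gins3, Ticrr, Pole2, Rfc3, Rpa2 and Tyms. Neutrophil markers summed to 0.774 to 0.834 RPM in KO and 2.72 to 3.12 in WT under DMXAA, the progenitor list to 2.89 to 3.06 against 1.11 to 1.29, and the stromal list to 0.56 to 0.85 against 0.151 to 0.614. Their part in the result was not tested.

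**Figure D4:**
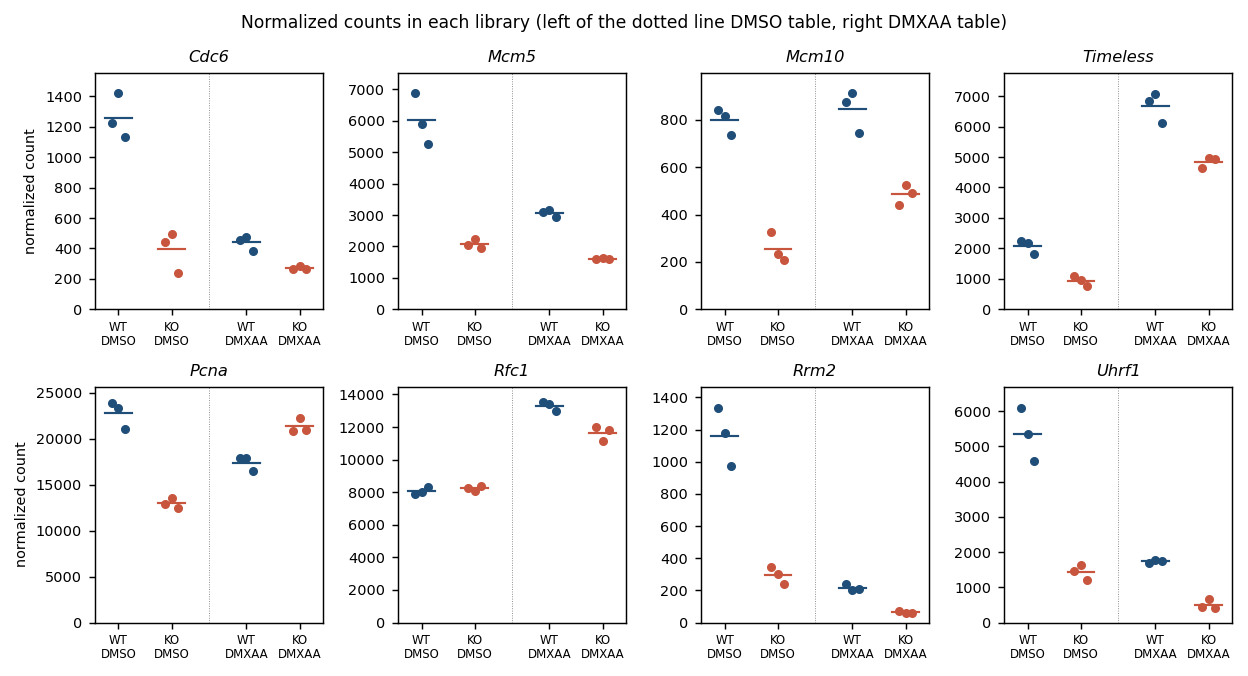
Normalized counts in every library for 8 members, with group means as lines, on linear axes from 0. The DMSO and DMXAA tables on either side of the dotted line were normalized separately, so levels compare within a side. Pcna is the one of the 8 whose KO libraries lie below WT under DMSO and above it under DMXAA, and Rfc1 overlaps under DMSO.

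The counts are given for members with and without the E2F-type letters in the promoter window. In KO under DMSO, 14 of the 17 with the letters and 20 of the 24 without were lower, with medians of -0.68 and -0.80. With DMXAA in WT the medians were -0.68 and -0.37, with 12 of 17 and 15 of 24 lower and 4 higher in each. In KO the medians were -0.19 and -0.20. For the interaction, 5 of 17 with the letters and 4 of 24 without had a higher response in KO, and 0 and 1 a lower one. The genes printed above were picked by hand. Of these, Pcna and Timeless, without a match, and Cdc6, Mcm5 and Mcm6, with one, had a higher response in KO. Uhrf1, also with a match, differed by 0.06 and did not pass.

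Genes of the same pathway outside the list also responded to DMXAA in both directions. Over all tested genes 31.1% were lower and 31.7% higher in WT, and 32.9% and 33.7% in KO. For the interaction, 5.37% had a higher and 3.24% a lower response in KO. A count near these shares, here or in the paragraphs that follow, says nothing particular to a list. Of 20 other nucleotide metabolism genes 12 fell and 5 rose in WT, and 10 fell and 4 rose in KO. The nucleotide-depleting enzyme gene Samhd1 rose by 2.26 in WT and 2.63 in KO, the deoxycytidine kinase gene Dck by 2.75 and 3.35, and the mitochondrial kinase gene Cmpk2 by 6.19 and 6.53. Of the 20 genes 5 had a higher response in KO and 0 a lower one, the latter also at an unadjusted p under 0.05 in limma and by edgeR and DESeq2. Among those that fell were Cad, at -1.40 in WT and -1.33 in KO, and Paics, at -0.73 and -0.52.

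Of 31 other replication factors 12 fell and 6 rose in WT and 9 fell and 6 rose in KO, with Orc4 at 0.48 and 0.57 and Tipin, the partner of TIMELESS, at -1.04 in WT. Tipin was the 1 of these factors with a higher, more positive response in KO (0.59). Among 12 G1 and S cyclins and kinases 7 fell and 3 rose in WT, and 5 fell and 5 rose in KO. The transcription factor gene Myc stood at -4.41 in WT and -4.0 in KO, both called lower, and the cyclin D1 gene Ccnd1 at -1.37 and -0.62, while Ccnd2 rose by 2.51 and 2.97. Of the E2F and RB family 10 fell and 3 rose in WT, and 9 fell and 5 rose in KO. Rbl1, which encodes the pocket protein p107, rose by 1.24 and 1.23 and the repressor gene E2f8 by 0.90 in KO, with a higher response there by 0.82 (adjusted p = 0.00044).

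The CDK inhibitor gene Cdkn1a, which encodes p21, rose by 0.99 in WT and 0.64 in KO, a difference of -0.36 (adjusted p = 0.0226). Of 7 CDK inhibitor genes, 3 rose and 1 fell in WT, and of 5 tested in KO 2 rose and 2 fell. Of the 14 G2 and M phase markers 13 fell in WT and 11 in KO, with medians of -1.52 and -1.59, and 0 rose, at an unadjusted p under 0.05 in limma and by edgeR and DESeq2 too. Ccnb2 (-2.17) and Birc5 (-0.82) had a lower, more negative response in KO and 0 a higher one in limma and edgeR, with 2 at an unadjusted p under 0.05 and 1 by DESeq2. Ccnb2 thus fell more in KO, at -4.51 against -2.32 in WT. Of 10 checkpoint genes 4 fell and 1 rose in WT and 3 fell and 2 rose in KO, with Chek1 at -1.13 and -1.35. Between genotypes under DMXAA, 10.8% of all tested genes were lower in KO and 10.7% higher. There 12 of 13 tested G2 and M phase markers were lower in KO, with a median of -1.04, and 0 were higher in limma, also unadjusted, and by edgeR and DESeq2. Of 31 other replication factors 6 were lower there and 0 higher in limma, edgeR and DESeq2, with 1 higher at an unadjusted p under 0.05.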

How the data were processed

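RNA was extracted from the macrophages and made into strand-specific mRNA libraries, per the labels' protocols. Reads were processed with HISAT2 and featureCounts against mm10, per the submitters' processing notes. The versions, and whether counting used strand, are not given in the sources used here, and 26 of the 49 genes overlap another gene of GENCODE vM21. The authors deposited 4 tables of normalized counts (a signal scaled within each table of 6 libraries) and 4 tables of their own log2 fold changes and adjusted p-values. In the normalized counts 100% of values were whole multiples of 1 step per library (tolerance 0.01), so whole reads were recovered, and edgeR and DESeq2 on these were alternatives. The edgeR fit called 888 genes higher and 1239 lower in KO under DMSO.

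Each comparison used limma 3.58.1 (trend) on log2 of the deposited normalized count plus 1, for genes with a mean of at least 10, with Benjamini-Hochberg adjustment over all genes tested, two-sided, called under 0.05. Every log2 value without another source, its SE and its adjusted p come from this fit, n is 3 libraries a group, and a value read across tables is not on a common scale. The interaction used all 12 libraries. Edits of 1 choice at a time (pseudocount 5, no filter, a mean of at least 50, 2 other scalings, edgeR 4.0.16, DESeq2 1.42.0, 2 replicate blocks, each library left out) were alternatives. Counts were also simulated with 200 genes changed, drawn from genes with a mean of at least 50. There limma recovered 100% of log2 changes of 1 for KO against WT under DMSO and 99.0% for the interaction. The spread between simulated libraries was set to the same value for all genes and not taken from the data. The check therefore does not measure power for the members.

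All 49 members are named. Values in every library are given for the member with the smallest p in each role for the genotype difference under DMSO and for DMXAA in WT, for members that ran against most called members, and for the 5 with the smallest interaction p. Of the 7 pathway lists, those named are among the 3 called genes a direction with the smallest p in a comparison, and neighbours of Timeless were chosen after their values were seen. The members and lists were chosen with earlier results of these data known. The labels do not say that libraries of a group come from separate mice or cultures, so p-values measure only the spread between these samples. In the authors' deposited tables, calls at the same threshold were the same for 49 members in WT and under DMSO, and for 47 in KO and under DMXAA.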

Additional observations from a re-analysis of the deposited data

Results flagged for a closer look

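The response to DMXAA differed between KO and WT for 11 of the 49 genes by the interaction term of limma. The values are KO minus WT differences of the log2 responses. They were 1.11 for Pcna, 1.04 for Cdc6, 0.87 for Mcm10, 0.70 for Timeless, 0.60 for Mcm5, 0.57 for Mcm6, 0.57 for Rrm1, 0.55 for Mcm4, 0.44 for Cdt1 and 0.19 for Dnmt1, and -0.22 for Rfc1. Groups of 3 libraries are too small for a test of single outlying samples, and none was made.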

How the results depend on the processing

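Of 4112 member values recomputed under the alternatives, 3905 kept their call or its absence, 146 lost their call, 51 gained one in the same direction and 10 that were called in either fit changed sign. These 10 came with another scaling. With the same total these were Dnmt1 (-0.21), Rfc3 (-0.0326) and Prim2 (-0.29) for DMXAA in WT, and Mcm6 (-0.0743), Gins4 (-0.00062), Prim2 (-0.23), Rfc4 (-0.37), Fen1 (-0.37) and Dnmt1 (-0.0934) in KO. With the same upper quartile it was Dnmt1 in WT (-0.0191). The counts of members followed: with the same total 4 were higher in WT, 34 lower and 7 higher in KO, and with the same upper quartile 6 were higher in WT. The rescaling itself moves the median of all genes. Leaving out each library in turn gave 27 to 30 lower and 7 to 9 higher for DMXAA in WT, 20 to 22 and 13 in KO, 36 to 40 and 0 for KO against WT under DMSO, 25 to 32 and 1 under DMXAA, and for the interaction 8 to 13 higher and 0 to 1 lower. The 1 lower interaction (Rfc1) was also lost, leaving 0, with both KO libraries rich in Col1a1 left out. Where a left-out library leaves 2 or 1 in a group, fewer samples bear the test. With a replicate block by title number, 9 members were higher and 30 lower in WT, 13 and 21 in KO, 0 and 39 in KO against WT under DMSO, 1 and 30 under DMXAA, and 9 and 1 for the interaction. With a replicate block by the numeral of the library name there were 7 and 29 in WT. Same-numbered libraries correlated at -0.0358 to 0.0656 in their deviations from group means. Such weak correlations cannot show whether libraries were paired, and the main fits treat the numbers as names only. Ticrr and Orc1, which had few reads, had the largest mean SE of the 49.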

Other observations

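Timeless, the member with the largest rise, lies on chromosome 10 (128232065 to 128252941, plus strand, GRCm38) among genes that also rose with DMXAA. These neighbours were chosen after their values were seen. Mip, a lens water channel gene that ends 0.253 kb before Timeless, had 0 reads in every WT library under DMSO and 20 to 29 under DMXAA, and 1 to 4 against 18 to 30 in KO. Apof, an apolipoprotein gene 15.73 kb after it, had 155 to 182 reads in WT under DMSO and 1416 to 1453 under DMXAA, and 90 to 129 against 1378 to 1484 in KO. Stat2, a factor of interferon signalling 17.62 kb after it on the same strand, had 4114 to 5360 against 41789 to 46462 reads in WT and 2991 to 3500 against 42496 to 44036 in KO.

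Farther out the neighbours did not follow. Pan2, 50.39 kb after Timeless, changed by 0.08 in WT and -0.11 in KO, and Gls2, 22.06 kb before it, by 0.04 and -0.25, and none of these passed the test. Spryd4, 20.26 kb before it, rose by 0.46 in WT (adjusted p = 0.00927, limma) and stood at -0.05 in KO. The GENCODE gene Timeless begins before the RefSeq start whose promoter is printed above. Counts per gene do not show from which start the added reads came.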
